A study of Schizosaccharomyces pombe with 261 samples.

Results

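The genes described here are the cytosolic ribosomal protein genes of fission yeast (Schizosaccharomyces pombe), chosen by annotation symbol: rpl, rps or rpp followed by digits only. Of 7015 genes in the count files, 140 gene records met that rule. By their annotated products rpp1, rpp21 and rpp40 are subunits of RNase P or RNase MRP, and a second record named rps3 is mitochondrial, so these 4 were left out. The remaining 136 genes comprised 74 of the large subunit, 55 of the small subunit and 7 of the stalk (rpp0, rpp101, rpp102, rpp103, rpp201, rpp202 and rpp203), and 136 of 136 passed the filter on low counts. They form 76 families, of which 21 hold 1 gene, 50 hold 2 genes and 5 hold 3 genes. The product of rpl701 is annotated as an L7-like protein of RNase MRP and that of rpl44 as an L28e family protein, and both were kept.

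Polyadenylated RNA was sequenced from cells grown in rich medium at 30 °C and moved to a water bath at 37.5 °C for 0, 2.5, 5 or 25 min. The 39 libraries analysed here formed 13 groups of 3, out of 261 samples in the series, and the samples of ChIP-seq and of PRO-seq are not used here. Series RNA3 held libraries labelled atf1Δ (atf1Δ::KanMX6) and pcr1Δ (pcr1Δ::KanMX6) at 5 and 0 min, and libraries labelled clr4Δ (clr4Δ::NatMX6) at 0, 2.5 and 5 min. Wild type (WT) was sequenced at 0, 5 and 25 min in series RNA1 and at 0, 2.5 and 5 min in series RNA2. Every strain, WT included, was of mating type h+ and carried ade6-DN/N, leu1-32 and ura4-DS/E together with the reporters imr1L::ura4+ and otr1R::ade6+ near a centromere. Atf1 and Pcr1 are paired stress transcription factors, and Clr4 is the histone methyltransferase of heterochromatin. Series RNA3 has no WT library, so strain and series cannot be told apart in any comparison with WT. Nothing in the labels tells if replicates came from separate cultures, so p-values measure the spread between these libraries, which may be technical. In RNA of whole cultures, fewer cells of a kind and less RNA per cell cannot be told apart.

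A ribosome is built from a small subunit, which holds the mRNA and its decoding site, and a large subunit, which joins the amino acids. The stalk is a flexible arm of the large subunit made of acidic proteins that recruits elongation factors. In growing yeast a large part of transcription serves ribosomal protein genes, and nutrient and stress signals, among them those of TORC1, control them together. Many are duplicated, and the copies encode proteins that are identical or nearly so. In fission yeast many of their promoters carry a HomolD box in the place that a TATA box takes in other genes, often with a HomolE box upstream.

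Stretches at the 5′ end are shown first for the 3 small subunit pairs to which the results below return. In each pair 1 copy was called in a comparison of times in which the other was not, or fell further. Each stretch is the 150 bases before the start of the gene in the RefSeq annotation of assembly ASM294v3. It is given 5′ to 3′ on the strand of the gene. The deposited gene positions, on build ASM294v2, place these starts further upstream. By those positions all of the rps2201 stretch and part of every other stretch lie within the gene. Of 6845 genes in both annotations, 6810 shared a start or an end and 1997 shared both. Capitals mark an exact match to a HomolD box (CAGTCACA) or a HomolE box (ACCCTACC) on either strand. Rps14 lies on the platform of the small subunit, Rps26 at the channel through which the mRNA leaves, and Rps22 in the body of the subunit.
rps1401 (I:3436094-3436243, + strand): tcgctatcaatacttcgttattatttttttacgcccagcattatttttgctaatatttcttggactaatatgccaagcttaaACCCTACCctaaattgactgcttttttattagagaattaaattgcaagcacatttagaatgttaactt
rps1402 (II:1792213-1792362, + strand): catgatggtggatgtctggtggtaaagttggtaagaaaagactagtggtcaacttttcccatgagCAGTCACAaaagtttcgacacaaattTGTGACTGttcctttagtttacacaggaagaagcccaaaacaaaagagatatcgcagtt
rps2601 (I:236028-236177, - strand): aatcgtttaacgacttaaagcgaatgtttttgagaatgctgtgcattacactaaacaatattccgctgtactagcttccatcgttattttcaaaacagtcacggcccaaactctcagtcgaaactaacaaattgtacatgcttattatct
rps2602 (I:2793485-2793634, - strand): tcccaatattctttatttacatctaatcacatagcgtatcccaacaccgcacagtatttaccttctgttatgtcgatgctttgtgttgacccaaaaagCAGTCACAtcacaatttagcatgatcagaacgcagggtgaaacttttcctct
rps2202 (I:1512391-1512540, - strand): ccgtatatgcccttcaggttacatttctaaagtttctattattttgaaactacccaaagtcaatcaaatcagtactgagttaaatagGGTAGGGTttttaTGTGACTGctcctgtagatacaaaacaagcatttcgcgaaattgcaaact
rps2201 (I:1162659-1162808, - strand): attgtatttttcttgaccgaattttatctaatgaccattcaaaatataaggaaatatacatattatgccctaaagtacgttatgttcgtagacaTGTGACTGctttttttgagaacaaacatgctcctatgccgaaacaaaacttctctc

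In the positions below, which give the first base of a box, -1 is the base before the RefSeq start. The stretch of rps1401 held a HomolE box at -68 and no HomolD box. That of rps1402 held 2 HomolD boxes, at -85 on the strand of the gene and at -59 on the opposite strand. No exact match to either box was found in the stretch of rps2601, while rps2602 had a HomolD box at -52. The stretch of rps2601 does hold cagtcacg, which differs from HomolD in its last base only. The stretch of rps2202 had a HomolD box at -50 and a HomolE box at -63, and that of rps2201 a HomolD box at -56, all on the opposite strand. Windows from 250 bases before to 50 bases after the RefSeq start were also searched. In these, 64% of the ribosomal protein genes (87 of 136) held HomolD, against 2.68% of all 5104 protein-coding genes. HomolE was found in 30.1% of the ribosomal protein genes and in 1.63% of all, and both boxes in 16.9% of the ribosomal protein genes. The letters TATAAA were found in 27.9% of the ribosomal protein genes and in 48.1% of all. Both strands were searched, and none of these motifs overlaps another in its letters.

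Libraries held 6573143 to 12588425 counts in genes. Reads mapped to several places were 6.8 to 21.2% of reads, and ribosomal RNA identifiers took 0.00141 to 0.0502% of the counts. The targeted genes did not all follow the labels. At 5 min atf1 averaged 168 ± 6.66 CPM in libraries labelled atf1Δ, against 718 ± 31.1 CPM in WT RNA1, and pcr1 averaged 53.3 ± 2.73 CPM in libraries labelled pcr1Δ, against 363 ± 35.2 CPM in WT RNA1 (SD, n = 3 each). At 0 min, the time at which strains are compared below, atf1 averaged 129 ± 12.4 CPM in libraries labelled atf1Δ, near its 131 ± 14.2 CPM in WT RNA1 and below its 213 ± 8.65 CPM in WT RNA2. At that time pcr1 averaged 42.3 ± 4.84 CPM in libraries labelled pcr1Δ, against 64.1 ± 8.98 CPM in WT RNA1 and 71.7 ± 15.2 CPM in WT RNA2, and clr4 averaged 175 ± 4.16 CPM in libraries labelled clr4Δ, above its 51.1 ± 1.90 CPM in WT RNA1 and 43.7 ± 0.849 CPM in WT RNA2, so libraries are named here by their label. CPM (read counts scaled to the library's total of counts in genes, after TMM normalisation) rest on a scaling that sets the bulk of genes equal between libraries.

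Ribosomal protein genes took 7.22 to 15.9% of all counts in genes per library, the lowest share being after 25 min of heat. In WT RNA1 the share was 13.8 ± 1.37% on average at 0 min, then 11.9 ± 0.266% at 5 min and last 7.27 ± 0.0439% at 25 min (SD, n = 3 each). The third library at 0 min had 12.2%, below the 14.6% of each of the other 2 and near the 5 min libraries. In WT RNA2 the mean was 13.3% before heat, 13.2% after 2.5 min and 11.95% after 5 min. Libraries labelled clr4Δ averaged 14.4%, 13.5% and 11.9 ± 1.73% at those times. Libraries labelled atf1Δ averaged 13.2 ± 1.02% at 5 min and 13.7 ± 1.01% at 0 min, and libraries labelled pcr1Δ 13.1 ± 1.05% at 5 min and 14.6 ± 1.21% at 0 min, and in both lines the libraries of the 2 times overlapped.

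**Figure D1:**
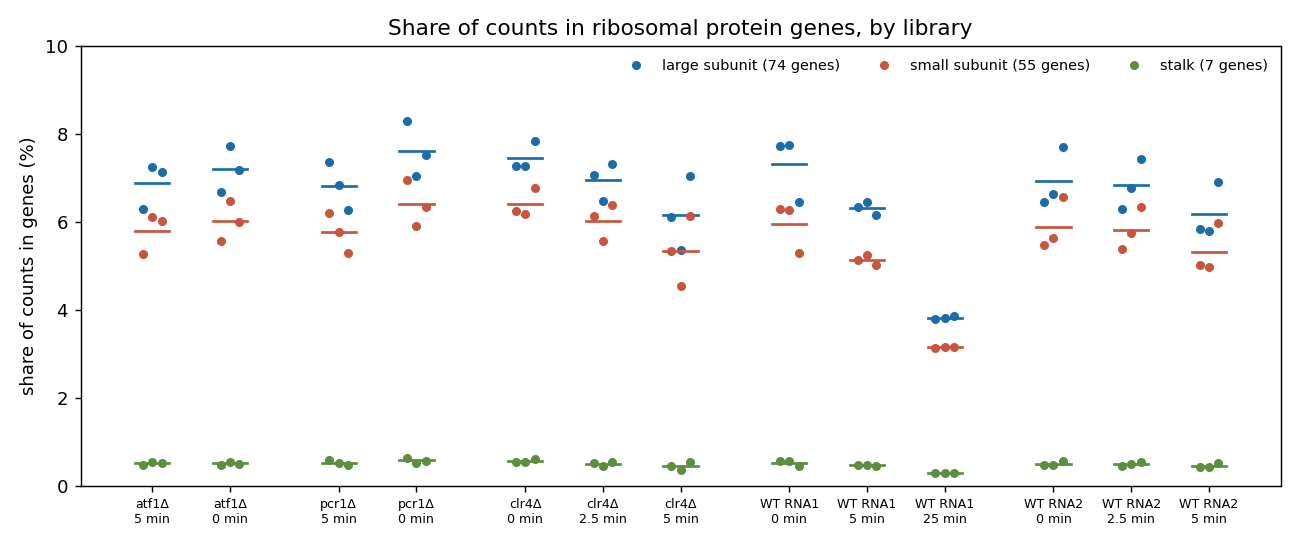
Share of counts in genes (%, y axis) taken by the large subunit, small subunit and stalk genes in each of the 39 libraries, with groups along the x axis, points for libraries and bars for the means of 3. After 25 min in WT RNA1 the large subunit genes took 3.79 to 3.85% and the small subunit genes 3.13 to 3.16%, below every other group.

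Large and small subunit genes moved nearly in step. The count of the large subunit genes was 1.14 to 1.24 times that of the small subunit genes across the 39 libraries. Within WT RNA1 the ratio averaged 1.23 ± 0.00828 at 0 min, 1.23 ± 0.00715 at 5 min and 1.21 ± 0.00409 at 25 min (SD, n = 3 each). The large subunit genes took 3.82% of counts at 25 min and 7.31% at 0 min, and the small subunit genes 3.15% at 25 min and 5.95% at 0 min. It ran from 1.21 to 1.24 in WT RNA1, from 1.16 to 1.18 in WT RNA2, from 1.14 to 1.18 in libraries labelled clr4Δ and from 1.19 to 1.20 in libraries of either atf1Δ or pcr1Δ. The libraries of WT RNA1 and WT RNA2 did not overlap. The stalk genes took 0.297 to 0.299% of counts at 25 min and 0.453 to 0.571% at 0 min in WT RNA1.

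After 25 min at 37.5 °C nearly the whole set had fallen. In WT RNA1 at 25 against 0 min, 132 of 136 genes were lower and 0 were higher at an adjusted p under 0.05 (edgeR quasi-likelihood test, Benjamini-Hochberg over 6172 genes), where 33.5% of all genes tested were lower and 33.9% higher; DESeq2 also called 0 higher, and 0 were higher at an unadjusted p under 0.05. The median change was -1.01 on the log2 scale, against 0.02 for all genes tested, and 69 genes were at least 2-fold lower. By subunit, 70 of 74 large subunit genes fell, with a median of -1.03, 55 of 55 small subunit genes, with a median of -0.96, and 7 of 7 stalk genes, with a median of -1.08. In 123 of the 136 genes every library at 25 min lay below every library at 0 min, where 35.1% of all genes tested did so, and 0 lay wholly above, where 36.8% did. Leaving out any 1 library left 126 to 134 genes called.

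The steepest fall was that of rps2601 (SPAC806.03c), which had 148, 123 and 144 CPM at 25 min, against 562, 549 and 674 CPM at 0 min, a change of -2.10 ± 0.09 (SE, edgeR adjusted p = 9.63e-20). The 25 min libraries lay far below and apart from those at 0 min. Next was rpl3402 of the large subunit, with 81.2, 78.6 and 81.7 CPM at 25 min, against 269, 259 and 279 CPM at 0 min (-1.74 ± 0.11). Its paralogue rpl3401 is described below, since it kept more of its RNA. The gene rpl1202, for the protein at the base of the stalk that touches the elongation factors, had 99.3, 96.5 and 98.8 CPM at 25 min, against 381, 345 and 259 CPM at 0 min (-1.74 ± 0.15). The acidic stalk gene rpp101 had 145, 145 and 137 CPM at 25 min, against 503, 491 and 314 CPM at 0 min (-1.61 ± 0.19). The gene rps1001, for a protein of the head of the small subunit, had 288, 289 and 303 CPM, against 955, 842 and 683 CPM (-1.50 ± 0.15). In each of these the 2 times did not overlap, and in all but rps2601 and rpl3402 the third library at 0 min was the lowest of its group.

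The 4 genes not called were all of the large subunit. They were rpl4102 (-0.51 ± 0.26, edgeR adjusted p = 0.0848) and rpl4101 (-0.29 ± 0.18, edgeR adjusted p = 0.141), which encode the smallest ribosomal protein, rpl3602 (-0.32 ± 0.19, edgeR adjusted p = 0.134) and rpl3002 (-0.21 ± 0.14, edgeR adjusted p = 0.178). Their 0 min libraries were spread: rpl4102 had 132, 211 and 149 CPM at 25 min, against 129, 320 and 251 CPM at 0 min, and rpl4101 had 495, 495 and 392 CPM at 25 min, against 565, 759 and 370 CPM at 0 min. The groups overlapped in both. The gene rpl3002 had 105, 85.6 and 85.7 CPM at 25 min, against 117, 109 and 92.9 CPM at 0 min, and these overlapped as well.

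Among genes with known roles in the ribosome, changes ran from -0.65 to -1.61. The scaffold of the stalk, rpp0, changed by -0.65 and the acidic stalk genes by -0.75 (rpp102) to -1.61 (rpp101), with rpp103 at -1.28, rpp201 at -1.08, rpp202 at -1.02 and rpp203 at -1.36. The rps6 pair, whose product is the substrate of S6 kinase below TORC1, changed by -1.15 (rps601) and -1.05 (rps602). Genes for proteins along the path of the mRNA changed by -0.80 (rps2), -0.91 (rps3) and -0.94 (rps20). Among large subunit genes, rpl301 and rpl302, whose product reaches towards the peptidyl transferase centre, changed by -0.71 and -1.06. The genes for the partners of 5S ribosomal RNA changed by -0.77 (rpl501), -1.12 (rpl502), -0.92 (rpl1101) and -1.33 (rpl1102). Those for Rpl10, which is added late in the making of the subunit, changed by -0.84 (rpl1001) and -0.92 (rpl1002), and those for Rpl25, at the exit of the peptide tunnel, by -1.01 (rpl2501) and -1.13 (rpl2502). All of these passed the test.

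Most of the fall came after 5 min. At 25 against 5 min in WT RNA1, 133 of 136 genes were lower and 1 was higher, with a median change of -0.99 on the log2 scale, where 29.6% of all genes tested were lower and 28.4% higher. Every library at 25 min lay below every library at 5 min in 134 genes, where 34.9% of all genes tested did so. The steepest were again rps2601 (-1.79 ± 0.09), rpl1202 (-1.53 ± 0.15), rpp101 (-1.51 ± 0.19) and rpl3402 (-1.45 ± 0.11), followed by rpl801 (-1.38 ± 0.18). The genes not called were rpl4102 and rps2202 (-0.16 ± 0.10), and the gene that rose was rps1401 (0.61 ± 0.17, edgeR adjusted p = 0.00205).

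**Figure D2:**
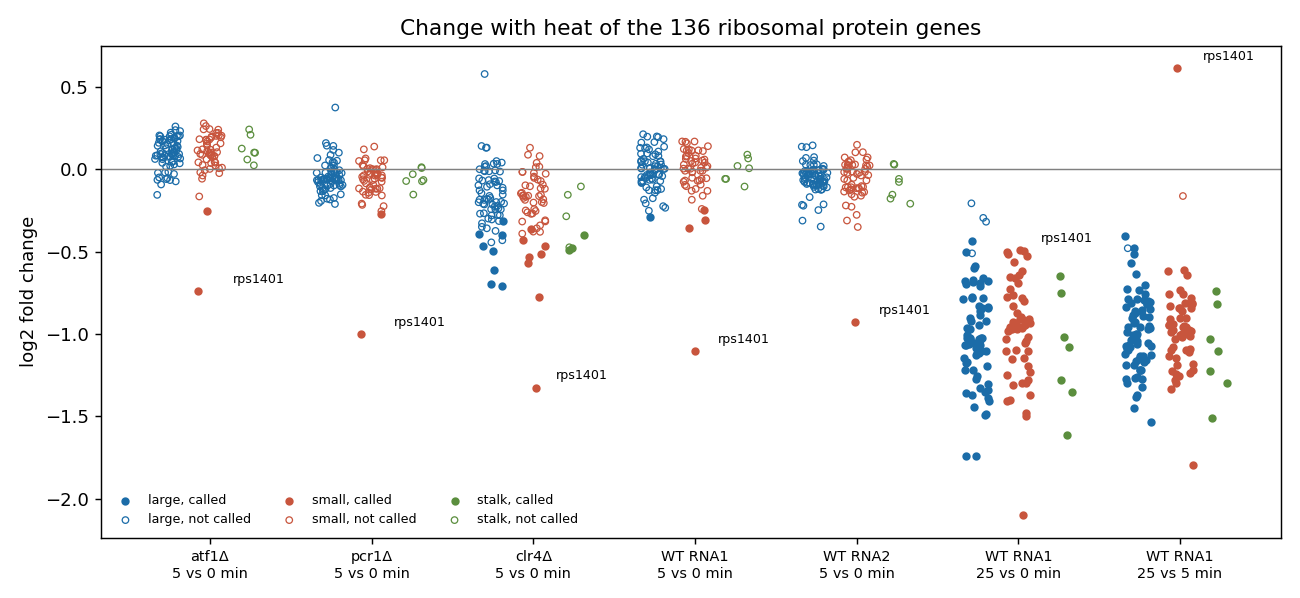
The log2 fold change (y axis) of each of the 136 genes in 7 comparisons of times within a strain and series (x axis), by subunit; filled points passed an adjusted p under 0.05 and open points did not. At 25 min the whole set lies below 0 against 0 min, while at 5 min rps1401 stands alone below the rest, from -0.74 to -1.33.

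Within the first 5 min few ribosomal protein genes were called without the replicate block, save in clr4Δ. At 5 against 0 min 0 were higher and 5 lower in WT RNA1, where 24.9% of all genes tested were higher and 23.5% lower, and 0 were higher and 1 lower in WT RNA2, where 14.1% were higher and 13% lower. In libraries labelled atf1Δ 0 were higher and 2 lower, where 12.6% of all genes tested were higher and 17.3% lower. In those labelled pcr1Δ 0 were higher and 2 lower, where 12.5% were higher and 14.9% lower. In those labelled clr4Δ 0 were higher and 19 lower, where 16.2% were higher and 14% lower. Median changes of the 136 genes were 0.10 (atf1Δ), -0.06 (pcr1Δ), -0.18 (clr4Δ), 0.00 (WT RNA1) and -0.05 (WT RNA2), against -0.01, 0.00, 0.02, 0.00 and 0.00 for all genes tested. At an unadjusted p under 0.05, 2, 1, 1, 0 and 0 genes were higher, and DESeq2 called 2, 2, 20, 5 and 1 genes in all. Every library at 5 min lay above every library at 0 min in 2 genes of atf1Δ, 2 of pcr1Δ and 1 of clr4Δ, and in 0 of WT RNA1 and WT RNA2, where 21.6%, 22.9%, 17.6%, 28.4% and 17.9% of all genes tested did so. Every library lay below in 2, 3, 16, 10 and 7 genes of those lines, where 24.3%, 24.4%, 16.1%, 27.3% and 17.1% of all genes tested did so. Replicate numbers paired the libraries in the pcr1Δ, clr4Δ and WT lines; with the replicate block the counts were 9 (2 higher) in pcr1Δ, 59 (2 higher) in clr4Δ, 18 (6 higher) in WT RNA1 and 9 (1 higher) in WT RNA2. With library totals in place of TMM, which lowers the median of all genes by up to 0.21, they were 5 in atf1Δ, 10 in pcr1Δ, 45 in clr4Δ, 39 in WT RNA1 and 11 in WT RNA2, all lower. Leaving out 1 library gave 1 to 3 genes in atf1Δ, 1 or 2 in pcr1Δ and 1 or 2 in WT RNA2; it was 1 without replicate 2 or 3 at 0 min or replicate 2 at 5 min in atf1Δ, 1 without any replicate at 0 min or replicate 2 or 3 at 5 min in pcr1Δ, and 2 without replicate 3 at 0 or 5 min in WT RNA2.

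One gene, rps1401 (SPAC3H5.05c), fell by 5 min in all 5 lines. In libraries labelled atf1Δ it had 96.8, 124 and 143 CPM at 5 min, against 192, 210 and 206 CPM at 0 min (-0.74 ± 0.17, SE; edgeR adjusted p = 0.000754). In those labelled pcr1Δ it had 140, 131 and 94.9 CPM at 5 min, against 274, 221 and 235 CPM at 0 min (-1.0 ± 0.17; edgeR adjusted p = 1.56e-05). In each line the libraries of the 2 times stood apart. In libraries labelled clr4Δ it had 234, 188 and 230 CPM at 0 min, 188, 130 and 193 CPM at 2.5 min and 104, 54.1 and 103 CPM at 5 min (-1.33 ± 0.17 at 5 against 0 min; edgeR adjusted p = 1.91e-07). In WT RNA2 it had 193, 209 and 214 CPM at 0 min, 174, 194 and 174 CPM at 2.5 min and 112, 103 and 108 CPM at 5 min (-0.93 ± 0.17; edgeR adjusted p = 4.86e-05). At 2.5 min the libraries overlapped those at 0 min in both lines, although each numbered library was lower than its partner at 0 min, and the change was -0.35 ± 0.16 in clr4Δ (edgeR adjusted p = 0.387) and -0.19 ± 0.16 in WT RNA2 (edgeR adjusted p = 0.861). In WT RNA1 it had 278, 267 and 223 CPM at 0 min, 124, 113 and 120 CPM at 5 min and 186, 176 and 185 CPM at 25 min (-1.10 ± 0.17 at 5 against 0 min; edgeR adjusted p = 1.23e-06). At 25 min it thus lay between its earlier levels and was still below 0 min (-0.49 ± 0.16, edgeR adjusted p = 0.0089). No call of rps1401 at 5 against 0 min was lost when any 1 library was left out.

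Its paralogue rps1402 (SPBC18H10.13), whose coding sequence is 93.6% identical and encodes the same protein, was not called at 5 min in any line. In WT RNA1 it had 888, 808 and 514 CPM at 0 min, 755, 836 and 719 CPM at 5 min and 375, 354 and 351 CPM at 25 min, so that it fell only with the rest of the set (-1.03 ± 0.23 at 25 against 0 min). Its change at 5 min ran from -0.36 ± 0.23 in libraries labelled clr4Δ to 0.24 ± 0.23 in those labelled atf1Δ. The locus of rps1401 (ASM294v2, I:3436186-3436825, + strand) is covered from end to end on the other strand by SPAC3H5.04 and overlapped on its own strand by SPAC3H5.06c. At 5 against 0 min SPAC3H5.06c changed by -0.19 ± 0.10 (atf1Δ, not called), -0.06 ± 0.10 (pcr1Δ, not called), -0.32 ± 0.10 (clr4Δ), -0.42 ± 0.10 (WT RNA1) and -0.33 ± 0.10 (WT RNA2), and SPAC3H5.04 by 0.23 ± 0.08, 0.14 ± 0.08 (not called), 0.13 ± 0.08 (not called), 0.37 ± 0.08 and 0.20 ± 0.08 (not called). The part of these overlapping genes in the counts of rps1401 was not tested. In the second deposited table, a coverage signal for the 18 libraries of WT RNA2 and clr4Δ, the log2 ratio of rps1401 to rps1402 shifted by -0.58 in clr4Δ and -0.62 in WT RNA2 at 5 against 0 min, against -0.94 and -0.91 in the counts.

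**Figure D3:**
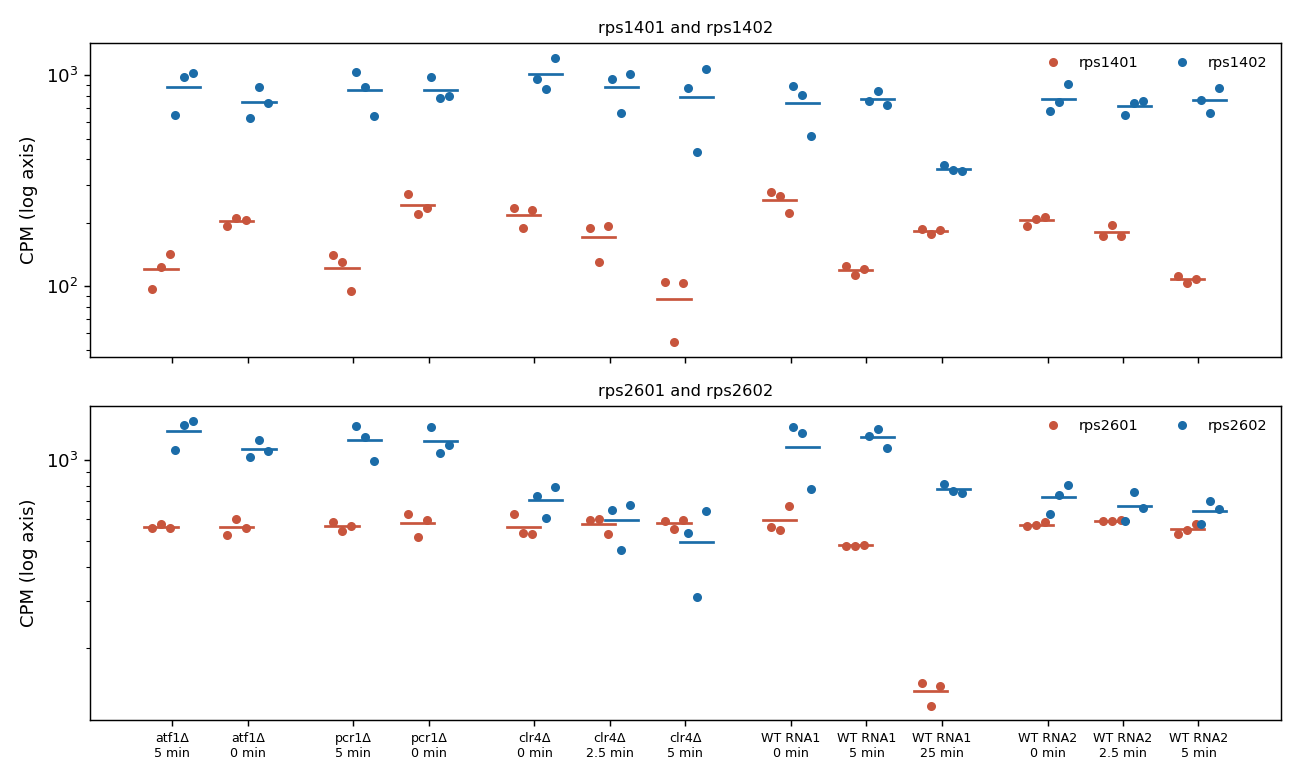
CPM per library (y axis, log scale) of rps1401 and rps1402 (upper panel) and of rps2601 and rps2602 (lower panel) in the 13 groups (x axis), with points for libraries and bars for means of 3. The copy rps1401 is lower at 5 than at 0 min in every line, while the libraries of rps1402 at these times overlap, and rps2601 drops to 123 to 148 CPM at 25 min in WT RNA1.

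The second member seen in most lines was rps2202 (SPAC5D6.01). It had 305, 326 and 318 CPM at 5 min, against 374, 389 and 367 CPM at 0 min in libraries labelled atf1Δ (-0.25 ± 0.10, edgeR adjusted p = 0.0462), and 377, 347 and 299 CPM at 5 min, against 422, 403 and 410 CPM at 0 min in those labelled pcr1Δ (-0.27 ± 0.10, edgeR adjusted p = 0.0327). In WT RNA1 it had 289, 298 and 300 CPM at 5 min, against 383, 399 and 352 CPM at 0 min (-0.35 ± 0.10, edgeR adjusted p = 0.00275). The libraries of the 2 times did not overlap in these 3 lines. It also fell in clr4Δ (-0.36 ± 0.10), and in WT RNA2 the change was -0.23 ± 0.10 (edgeR adjusted p = 0.0821). The calls in atf1Δ and pcr1Δ were lost under 12 and 8 other settings. The paralogue rps2201 was called in none of these comparisons at 5 min, and the difference between the copies was not tested. Their log2 ratio in WT RNA1, rps2201 to rps2202, was 2.28 ± 0.08 at 5 min and 1.92 ± 0.14 at 0 min (SD, n = 3 each). The other 3 genes that fell in WT RNA1 were rps2601 (-0.31 ± 0.09), rpl3402 (-0.29 ± 0.10) and rps2802 (-0.24 ± 0.08).

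The 19 genes that fell in libraries labelled clr4Δ were led, after rps1401, by rps1002 (-0.78 ± 0.20), rpl15 (-0.71 ± 0.20), rpl1602 (-0.69 ± 0.19) and rpl6 (-0.61 ± 0.17). Of the 19, 8 were of the large subunit, 8 of the small subunit and 3 of the stalk. The gene rps1002 had 246, 234 and 244 CPM at 0 min, 204, 164 and 187 CPM at 2.5 min and 160, 85.9 and 177 CPM at 5 min. The second library at 5 min was the lowest for rps1002, rps1401 and the whole set, of which it held 10.3% of counts, against 11.9% and 13.7% in replicates 1 and 3. Without that library 2 genes were called, without the third library at 5 min 39, and without the third library at 0 min 10. Fitted on the compared groups alone, 7 genes were called.

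At 2.5 min no ribosomal protein gene was called without the replicate block. In libraries labelled clr4Δ 0 of 136 genes were called at 2.5 against 0 min, where 0.907% of all genes tested were higher and 0.664% lower. In WT RNA2 0 were called, where 1.13% were higher and 0.599% lower. The share of counts in clr4Δ was 13.5 ± 0.909% at 2.5 min and 14.4 ± 0.696% at 0 min (SD, n = 3 each), with overlapping libraries. In WT RNA2 it was 13.2 ± 1.10% and 13.3 ± 1.32%, also with overlap. At an unadjusted p under 0.05 edgeR gave 1 gene in clr4Δ and 0 in WT RNA2, and DESeq2 called 0 in both. The libraries at 2.5 min lay wholly above those at 0 min in 1 gene and wholly below in 10 in clr4Δ, where 7.03% and 6.74% of all genes tested did so, and in 1 and 0 genes in WT RNA2, where 7.31% and 6.87% did. At 5 against 2.5 min rps1401 was the 1 gene called in clr4Δ (-0.97 ± 0.17, edgeR adjusted p = 7.8e-05), where 7.44% of all genes tested were lower and 8.57% higher, and in WT RNA2 (-0.74 ± 0.17, edgeR adjusted p = 0.00175), where 6.09% were lower and 7.42% higher. With the replicate block these counts were 13 in clr4Δ and 5 in WT RNA2, and 2 at 2.5 against 0 min in clr4Δ, all lower. Without the third library at 5 min they were 9 in clr4Δ and 3 in WT RNA2, and in the coverage signal described above 0 genes were called in WT RNA2.

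Levels per length spread widely within the set. In WT RNA1 at 0 min the level per kilobase of annotated exon ran from 43.5 CPM per kb for rpl1603 to 3766 CPM per kb for rpl8, a range of 86.6-fold, with medians of 1394 for large subunit, 1361 for small subunit and 1050 for stalk genes. The 21 single-copy genes had a median of 2380 CPM per kb and the 115 genes with a paralogue 1252 CPM per kb. Reads that map to both copies of a pair were not counted, so these medians are not like for like. Across the 136 genes the change at 25 min was not related to the level (Pearson r = -0.081, Spearman rho = 0.015, over genes that share libraries). The change was -1.02 in the median for the 87 genes with HomolD and -1.01 for the 49 without it. It was -0.96 for the 71 genes with an intron in the coding sequence and -1.03 for the 65 without. It was -0.84 for single-copy genes and -1.02 for genes with a paralogue. By coding length it was -0.91 for the 45 genes under 400 bases, -1.02 for the 56 of 400 to 600 and -1.02 for the 35 longer ones. Over the 136 genes the change had a Pearson r of -0.236 and a Spearman rho of -0.202 with coding length.

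Copies of the same protein differed in level and, in some families, in their response. Over 65 pairs the copies were 1.6-fold apart in the median at 0 min in WT RNA1, per length, and 19 pairs were over 2-fold apart. Their coding sequences were 66.1 to 99.6% identical, 87.3% in the median, and 16 pairs encode the same protein. Since reads that map to both copies were not counted, levels depend on how much sequence the copies share and on the annotated lengths, so shifts of the ratio between groups are given rather than levels. The log2 ratio between copies shifted by 0.318 in the median, in absolute terms, at 25 against 0 min, and by over 0.5 in 17 pairs. In 46 pairs the 3 ratios at 25 min did not overlap the 3 at 0 min. How often ratios between other genes separate in this way was not counted. Of all genes tested, taken singly, 36.8% lay wholly above and 35.1% wholly below at 25 against 0 min. The count of pairs therefore does not show that separation is particular to copies. Families of 3 genes give several pairs that share genes, so the pairs are not independent.

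**Figure D4:**
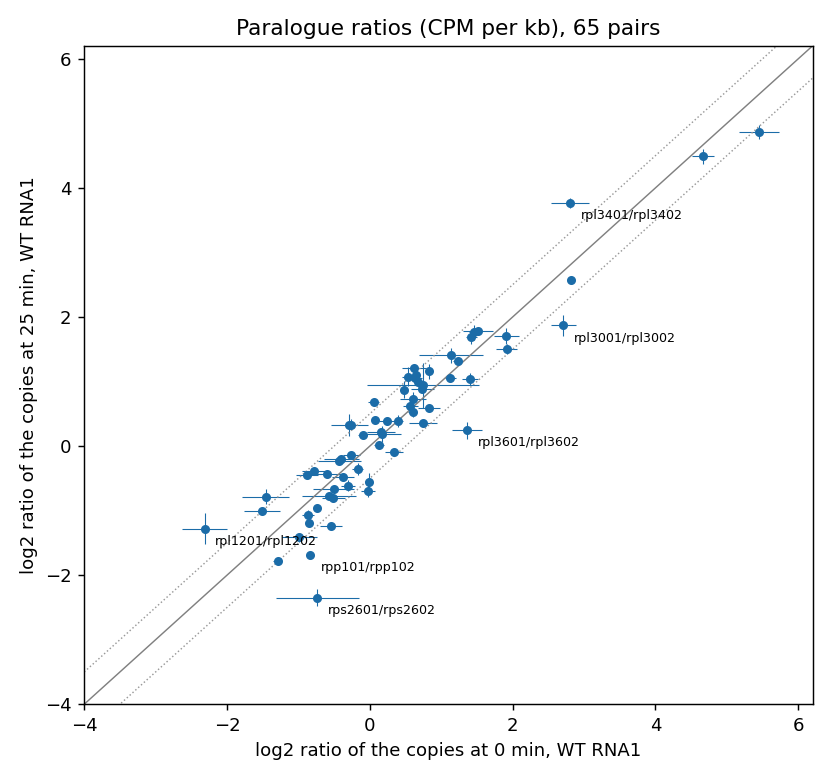
The log2 ratio of the 2 copies (CPM per kb) at 25 min (y axis) against that at 0 min (x axis) in WT RNA1 for 65 paralogue pairs, as means of 3 with SD; the solid line marks no shift and the dotted lines a shift of 0.5 either way. The pair rps2601/rps2602 lies lowest below the line, with a shift of -1.61, and rpl1201/rpl1202 and rpl3401/rpl3402 lie above it.

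The pair with the widest range over the 13 group means, 2.78 on the log2 scale, was rps2601 and rps2602, whose coding sequences are 78.8% identical. In WT RNA1 rps2602 had 1323, 1256 and 775 CPM at 0 min, 1223, 1296 and 1104 CPM at 5 min and 815, 762 and 749 CPM at 25 min, whereas rps2601 had 478, 480 and 483 CPM at 5 min and fell to 123 to 148 CPM at 25 min. The log2 ratio of rps2601 to rps2602 was -2.35 ± 0.13 at 25 min and -0.73 ± 0.59 at 0 min (SD, n = 3 each). The wide spread at 0 min came from the third library, which was the highest of the 3 for rps2601 and the lowest for rps2602. In clr4Δ the ratio moved the other way, from the side of rps2602: -0.18 ± 0.22 at 0 min, 0.11 ± 0.38 at 2.5 min and 0.43 ± 0.49 at 5 min. Each copy is covered whole by a gene on the other strand, SPNCRNA.625 over rps2601, at 5.63 to 9.45 CPM in the group means, and SPAC1805.10 over rps2602.

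Other pairs split in the same way at 25 min. For rpl3601 and rpl3602 the log2 ratio was 0.25 ± 0.13 at 25 min and 1.36 ± 0.22 at 0 min: rpl3601 had 201, 209 and 191 CPM at 25 min, against 564, 600 and 430 CPM at 0 min, and rpl3602 had 238, 216 and 190 CPM at 25 min, against 293, 331 and 179 CPM at 0 min. For rpl3401 and rpl3402 the ratio was 3.77 ± 0.08 at 25 min and 2.80 ± 0.27 at 0 min, with rpl3401 at 591, 587 and 550 CPM at 25 min, against 1021, 1116 and 832 CPM at 0 min. For rpl1201 and rpl1202, 99.6% identical in coding sequence, it was -1.28 ± 0.24 at 25 min and -2.32 ± 0.32 at 0 min, with rpl1201 at 37.2, 36.9 and 28 CPM at 25 min, against 49.6, 67.9 and 47.9 CPM at 0 min. With so few differing bases the counts of this pair are uncertain, and in the coverage signal, in RNA2, the log2 ratio at 0 min was -0.23, against -2.40 in the counts. Further shifts at 25 min were -0.86 for rpp101 to rpp102 and -0.84 for rpl3001 to rpl3002.

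For other families the range over groups followed the strain or series more than heat. The ratio of rpl1602 to rpl1603 ranged over 2.28, and was 5.22 ± 0.22 in atf1Δ, 5.18 ± 0.22 in pcr1Δ, 4.06 ± 0.10 in clr4Δ, 5.45 ± 0.28 in WT RNA1 and 4.14 ± 0.12 in WT RNA2 at 0 min. The ratios of rpl3702 to rpl3703 (range 1.95), rpl15 to rpl1502 (1.61), rps001 to rps002 (1.5) and rps1001 to rps1002 (1.33) also differed between groups. For rps001 to rps002 the ratio at 0 min was -0.62 ± 0.01 in atf1Δ, -0.52 ± 0.04 in pcr1Δ, -1.63 ± 0.05 in clr4Δ, -0.51 ± 0.16 in WT RNA1 and -1.46 ± 0.09 in WT RNA2. In rpl1602/rpl1603, rpl3702/rpl3703, rpl15/rpl1502 and rps001/rps002 every group mean of clr4Δ and WT RNA2 lay below every group mean of atf1Δ, pcr1Δ and WT RNA1.

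The stalk gene rpp202 (SPBC23G7.15c), one of 3 genes for the acidic P2 protein, set the libraries labelled atf1Δ apart. It had 271, 281 and 226 CPM in atf1Δ at 0 min, against 618, 496 and 531 CPM in pcr1Δ, a difference of -1.08 ± 0.14 (edgeR adjusted p = 8.88e-06), and was the 1 ribosomal protein gene called between these 2 strains, where 0.162% of all genes tested were lower in atf1Δ and 1.25% higher. Against the 714, 672 and 802 CPM of clr4Δ the difference was -1.49 ± 0.14 (edgeR adjusted p = 5.59e-10). WT had 506, 497 and 358 CPM in RNA1 and 520, 488 and 642 CPM in RNA2, and the difference of atf1Δ from WT was -0.95 ± 0.13 (edgeR adjusted p = 3.08e-07). All atf1Δ libraries lay below all others at 0 min, and at 5 min they still had 276, 294 and 279 CPM. The paralogue rpp203 had 210, 283 and 249 CPM in atf1Δ at 0 min, against 304, 252 and 278 CPM in pcr1Δ, and these overlapped. The log2 ratio of rpp202 to rpp203 was 0.06 ± 0.26 in atf1Δ, 0.97 ± 0.04 in pcr1Δ, 1.99 ± 0.06 in clr4Δ, 0.82 ± 0.02 in WT RNA1 and 1.64 ± 0.11 in WT RNA2 at 0 min. A gene on the other strand, SPBC23G7.14, covers 27% of rpp202 (ASM294v2, II:2127990-2128518, - strand) and was lower in the same libraries, by -1.81 ± 0.14 against pcr1Δ, -1.26 ± 0.14 against clr4Δ and -1.25 ± 0.13 against WT; its part in the counts of rpp202 was not tested.

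At 0 min more ribosomal protein genes were called for clr4Δ against atf1Δ or pcr1Δ than for atf1Δ against pcr1Δ, as among all genes tested. The shares called against clr4Δ were below those of all genes tested. Between atf1Δ and clr4Δ 14 genes were higher and 19 lower, where 23% of all genes tested were higher and 23.1% lower, and between pcr1Δ and clr4Δ 20 were higher and 9 lower, where 20.6% were higher and 22.7% lower. In both the highest was rpl1602 of the large subunit (1.06 ± 0.19 in atf1Δ, 1.31 ± 0.19 in pcr1Δ), followed by rps001 (1.04 ± 0.15 in atf1Δ, 1.28 ± 0.15 in pcr1Δ), rps1002 (0.80 ± 0.20 in atf1Δ, 1.15 ± 0.20 in pcr1Δ) and rps2 (0.75 ± 0.17 in atf1Δ, 0.94 ± 0.18 in pcr1Δ). Lower in both were rps27 (-0.64 ± 0.18 in atf1Δ, -0.60 ± 0.18 in pcr1Δ), rpl3601 (-0.59 ± 0.15 in atf1Δ, -0.51 ± 0.15 in pcr1Δ) and rpl1002 (-0.58 ± 0.17 in atf1Δ, -0.50 ± 0.17 in pcr1Δ). These 2 comparisons share the clr4Δ libraries.

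Against the mean of both WT series at 0 min, atf1Δ had 8 genes higher and 2 lower, where 22.7% of all genes tested were higher and 21.8% lower. In pcr1Δ 21 were higher and 1 lower, where 19.1% were higher and 19.2% lower, and in clr4Δ 18 were higher and 6 lower, where 14.3% were higher and 10.3% lower. The gene rpl102 was lower in atf1Δ (-0.41 ± 0.09) and in pcr1Δ (-0.31 ± 0.09), with 220, 201 and 191 CPM in atf1Δ and 232, 206 and 214 CPM in pcr1Δ, against 273, 270 and 224 CPM in WT RNA1 and 245, 284 and 329 CPM in WT RNA2. In clr4Δ the 6 lower genes were led by rpl1602 (-0.67 ± 0.16) and rps001 (-0.62 ± 0.13), and the highest was rps27 (0.61 ± 0.16). The WT series themselves differed in both leading genes, RNA2 against RNA1 by -1.17 ± 0.19 for rpl1602 and -1.12 ± 0.15 for rps001. The mean of both series thus lies between unlike levels for such genes. Levels of the labelled strains against WT RNA1 or WT RNA2 alone were not tested. The 3 comparisons share the WT libraries. Without atf1Δ replicate 1, 2 or 3 16, 3 and 6 genes were called in atf1Δ, and without the first pcr1Δ or clr4Δ library 11 were called in each of those.

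The 2 sets of WT libraries differed in some of the same genes. At 0 min WT RNA2 had 15 genes lower than WT RNA1 and 6 higher, where 9.75% of all genes tested were lower and 13.9% higher. The lowest were rpl1602, with 545, 641 and 722 CPM in WT RNA2, against 1663, 1533 and 1104 CPM in WT RNA1 (-1.17 ± 0.19), rps001, with 529, 614 and 669 CPM, against 1501, 1348 and 1095 CPM (-1.12 ± 0.15), and rps1002, with 198, 242 and 288 CPM, against 615, 522 and 435 CPM (-1.11 ± 0.20). No library of one set reached those of the other in any of the 3. They were followed by rps1001 (-0.91 ± 0.14), rps2 (-0.87 ± 0.18) and rpl13 (-0.84 ± 0.15). The highest were rpl4102 (0.83 ± 0.26), rpl4101 (0.62 ± 0.18), rpl3002 (0.56 ± 0.13), rpl3703 (0.42 ± 0.13) and rpl3802 (0.42 ± 0.11). Of the 15 lower genes 13 (86.7%) were among the 19 that fell in clr4Δ at 5 against 0 min, of which they made up 68.4%, and these 2 comparisons share no library. The 19 genes became 2 without the second clr4Δ library at 5 min and 7 on the compared groups alone. The overlap was not counted again under those settings. All 15 were among the 20 genes higher in pcr1Δ than in clr4Δ (75% of those), and 11 (73.3%) were among the 14 higher in atf1Δ than in clr4Δ (78.6% of those). Of all genes tested 14% fell in clr4Δ at 5 min, and 20.6% and 23% were higher in pcr1Δ and atf1Δ than in clr4Δ. The overlaps were not counted over all genes tested, so they may not be particular to ribosomal protein genes.

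The 15 genes, chosen after their values were seen and so given with no test, were followed through all groups as the difference between their median log2 CPM and that of the other 121 genes. That difference was 0.217 to 0.517 in every library of atf1Δ, pcr1Δ and WT RNA1, and -1.20 to -0.172 in every library of clr4Δ and WT RNA2, so the 2 kinds of library did not overlap at any time. The gap between WT RNA1 and WT RNA2 at 0 min follows from the choice of the genes. Later times of those series are not independent of that choice. It averaged -0.60, -0.79 and -1.03 in clr4Δ and -0.41, -0.48 and -0.62 in WT RNA2 at 0, 2.5 and 5 min, and in WT RNA1 0.44 at 0 min, 0.45 at 5 min and 0.26 at 25 min. The libraries of clr4Δ and WT RNA2 are also the 18 for which the second table was deposited. The median coding length of the 15 genes was 588 bases, against 447 bases for the other 121, and across the 136 genes the difference of WT RNA2 from WT RNA1 had a Pearson r of -0.403 and a Spearman rho of -0.367 with coding length. The part of length or of a difference in library making in these levels was not tested.

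**Figure D5:**
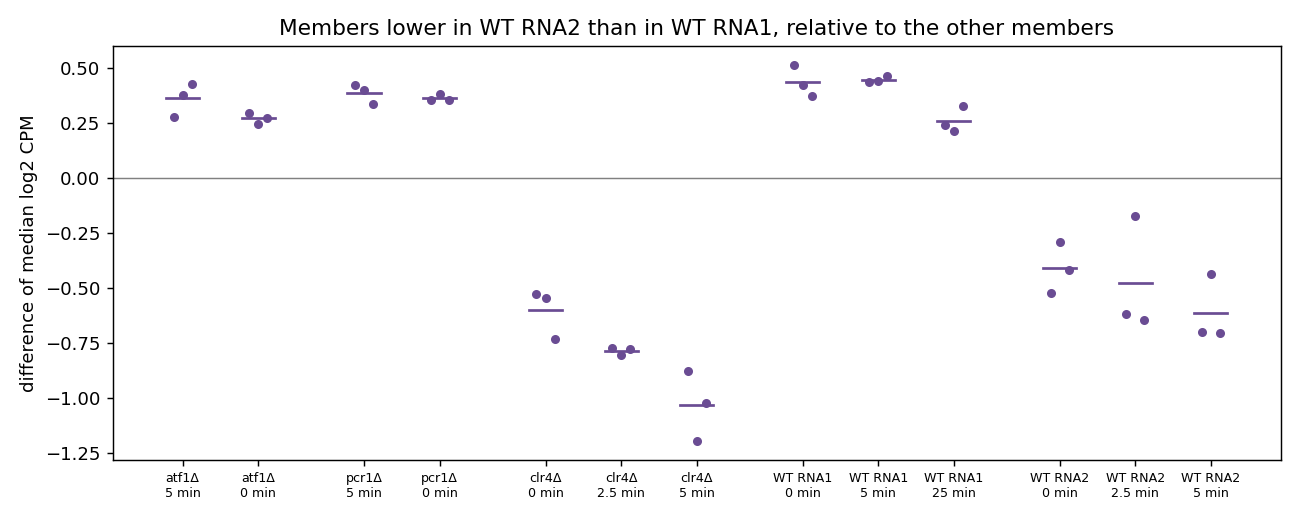
Median log2 CPM of the 15 genes lower in WT RNA2 than in WT RNA1 at 0 min minus that of the other 121 ribosomal protein genes (y axis), per library, in the 13 groups (x axis), with bars for means of 3. Libraries of atf1Δ, pcr1Δ and WT RNA1 lie above 0 and those of clr4Δ and WT RNA2 below it at all times. The gap between WT RNA1 and WT RNA2 at 0 min follows from the choice of the genes.

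Few differences in the response to heat between lines were called without the replicate block. The response at 5 min (5 against 0 min) was compared between lines in the same model. For atf1Δ minus WT, pcr1Δ minus WT and clr4Δ minus WT 0 genes were called, where 1.02%, 0.794% and 0.324% of all genes tested were higher and 7.94%, 6.4% and 2.3% lower. At an unadjusted p under 0.05 edgeR gave 0, 0 and 13 genes, and DESeq2 called 0 in each. For pcr1Δ minus clr4Δ 0 were called, where 0.34% of all genes tested were higher and 1.81% lower, with 6 at an unadjusted p under 0.05 and 0 by DESeq2. For WT RNA1 minus WT RNA2 0 were called, where 6.87% were higher and 2.41% lower, with 1 at an unadjusted p under 0.05 and 0 by DESeq2. For atf1Δ minus clr4Δ 1 gene was called, rps1002 (1.04 ± 0.28, edgeR adjusted p = 0.0329), where 0.437% of all genes tested were higher and 2.04% lower, and DESeq2 called 7 genes. In atf1Δ rps1002 had 357, 549 and 606 CPM at 5 min, against 338, 473 and 449 CPM at 0 min, and in clr4Δ 160, 85.9 and 177 CPM at 5 min, against 246, 234 and 244 CPM at 0 min. The libraries of the 2 times overlapped in atf1Δ and did not in clr4Δ. Leaving out 1 library moved this difference between 0.78 and 1.24 and ended the call for replicate 1 at 0 min or replicate 2 or 3 at 5 min in atf1Δ and for replicate 2 at 0 or 5 min in clr4Δ; 7 genes were called without the first atf1Δ library at 5 min, 13 without the third clr4Δ library at 5 min, and 2 without the second atf1Δ or the third clr4Δ library at 0 min. For clr4Δ minus WT 1 gene was called without the third WT RNA2 library at 5 min. With the replicate block 2 genes were called for atf1Δ minus WT, 21 for clr4Δ minus WT, 42 for atf1Δ minus clr4Δ and 10 for pcr1Δ minus clr4Δ. Replicate numbers were not taken to pair the atf1Δ libraries, so the block counts that involve atf1Δ rest on an unsupported pairing. Pairing between libraries of different lines was not examined. For rps1401 no difference between lines was called without the block.

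Genes of ribosomal proteins with other symbols and of translation elongation fell at 25 min, when 33.5% of all genes tested were lower and 33.9% higher than at 0 min. Of 5 genes that encode a ribosomal protein but have other symbols (the ubiquitin fusions ubi1, ubi2, ubi3 and ubi5, and cpc2, the RACK1 protein of the small subunit), 5 of 5 fell at 25 against 0 min, with a median change of -1.20, from -0.53 ± 0.18 for ubi3 to -1.44 ± 0.13 for cpc2, and 0 of 5 were called at 5 against 0 min in either WT series by edgeR. Of 9 genes of translation elongation 9 of 9 fell at 25 against 0 min, with a median of -0.69, among them tef3, for elongation factor 3 of fungi (-1.54 ± 0.16), and eft202, for elongation factor 2 (-1.47 ± 0.20). Again 0 of 9 were called at 5 min in either WT series. Of 8 genes of TORC1 and its kinases, 3 rose and 2 fell at 25 against 0 min, near the shares of all genes tested. Psk1, the kinase of ribosomal protein S6, fell by 0.90 (SE 0.13) and wat1, for a shared subunit of the TOR complexes, rose by 0.55 (SE 0.08). Of 7 candidate regulators 6 were tested and 2 fell at 25 against 0 min, again near the share of all genes tested, hmo1 (-0.71 ± 0.07) and fkh2 (-0.72 ± 0.10). At 5 against 0 min in WT RNA1 fkh2 rose (0.62 ± 0.10), fhl1 rose (0.31 ± 0.10) and rrn7 fell (-0.64 ± 0.10), when 24.9% of all genes tested were higher and 23.5% lower.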

How the data were processed

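Gene counts and a second table were used as deposited. Per the labels, hot phenol was used for RNA, and a poly(A) mRNA kit for the libraries. The submitters' processing notes name STAR, deepTools, bedtools 2.17.0, Bowtie 0.12.9 and Trimmomatic 0.33, and the build ASM294v2; which strand the counts use is not given in the sources used here. The deposited counts are whole reads per gene; rows for unmapped, multimapping, featureless and ambiguous reads were left out of library sizes. The second deposited table holds a coverage signal for 18 libraries; it had been planned for edgeR as counts, but its values are not counts, so it was tested with limma 3.58.1 on log2(signal + 50) over the 6150 genes whose signal averaged at least 500.

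One model over all 39 libraries was fitted with edgeR 4.0.16 (R 4.3.3; TMM, quasi-likelihood test, 26 residual degrees of freedom) on 6172 genes kept by a minimum count of 10 and a minimum total of 15, with Benjamini-Hochberg adjustment over all of them and a threshold of 0.05, for 24 comparisons. DESeq2 1.42.0 was an alternative, with library totals, no filter, DESeq2 size factors, TMM without the ribosomal protein genes, only the compared groups, a replicate block, the second table, and leaving out libraries. On simulated data for 25 against 0 min over 6172 genes, 85 of 100 genes changed 2-fold and 73 of 100 changed 1.5-fold were recovered, and 6 of 5905 unchanged genes were called. Replicates differed beyond sampling noise in all 39 pairs (chi-square of at least 5.47 per gene). Deviations of same-numbered libraries correlated with r of 0.129 to 0.671 in the WT, pcr1Δ and clr4Δ lines, over 0.1 in every pair, and with r of 0.028 to 0.589 in atf1Δ, so replicate numbers were taken to pair libraries in all lines but atf1Δ.

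The genes, lists and tests were chosen with earlier results of these data known. Genes named are the 5 largest called changes each way in each WT heat comparison with a mean of at least 10 CPM, genes not called lower at 25 min, genes with the roles listed, the 10 families with the widest range of the ratio between copies, and the 3 largest called differences of response; others were chosen after their values were seen. Some genes that the rule names are not reported here.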

Additional observations from a re-analysis of the deposited data

Results flagged for a closer look

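The response of rps1002 at 5 min differed between libraries labelled atf1Δ and clr4Δ, by a test of the difference itself. It changed by 0.26 ± 0.19 in atf1Δ and by -0.78 ± 0.20 in clr4Δ on the log2 scale, a difference of 1.04 ± 0.28 (SE, edgeR adjusted p = 0.0329). The libraries of the 2 times overlapped in atf1Δ, while in clr4Δ those at 5 min all lay below those at 0 min. In WT the change was 0.01 ± 0.19 in RNA1 and -0.35 ± 0.20 in RNA2. Leaving out 1 library gave differences between 0.78 and 1.24, with an adjusted p of up to 0.135.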

How the results depend on the processing

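Counts below are ribosomal protein genes called at an adjusted p under 0.05. With library totals they were 39 (WT RNA1 at 5 against 0 min), 11 and 3 (WT RNA2 at 5 against 0 and 2.5 min), 5 (atf1Δ), 10 (pcr1Δ), 45 and 9 (clr4Δ at 5 against 0 and 2.5 min), 5 for the response of atf1Δ minus clr4Δ and 32 for WT RNA2 against WT RNA1. With only the compared groups they were 4 (pcr1Δ), 7 (clr4Δ at 5 against 0 min), 0 for the response of atf1Δ minus clr4Δ, and at 0 min 2 (atf1Δ against pcr1Δ), 66 (atf1Δ against clr4Δ) and 47 (pcr1Δ against clr4Δ). Without the 3 libraries richest in ribosomal RNA they were 8 (WT RNA1 at 5 against 0 min), 1 (atf1Δ), 1 (pcr1Δ), 0 (atf1Δ minus clr4Δ), and against WT at 0 min 3 (atf1Δ), 14 (pcr1Δ) and 15 (clr4Δ). Without the 3 libraries richest in multimapping reads, a setting chosen after seeing the data, they were 1 (atf1Δ), 0 (atf1Δ minus clr4Δ), 2 (atf1Δ against pcr1Δ) and 13 (WT RNA2 against WT RNA1). No filter gave 1 (atf1Δ), DESeq2 size factors 1 (pcr1Δ), and TMM without these genes 1 (pcr1Δ), 6 (atf1Δ minus clr4Δ) and 2 (atf1Δ against pcr1Δ). The DESeq2 test gave 7 (atf1Δ minus clr4Δ) and 2 (atf1Δ against pcr1Δ). The second table gave 0 (WT RNA2 at 5 against 2.5 min) and 12 (clr4Δ at 5 against 0 min), and shifts of the rps1401 to rps1402 ratio of -0.58 (clr4Δ) and -0.62 (WT RNA2). The causes were not tested.

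With the replicate block the counts were 18 (WT RNA1 at 5 against 0 min), 9 and 5 (WT RNA2 at 5 against 0 and 2.5 min), 13 (atf1Δ), 9 (pcr1Δ), 2, 59 and 13 (clr4Δ at 2.5 against 0, 5 against 0 and 5 against 2.5 min). For responses the block gave 2 (atf1Δ minus WT), 21 (clr4Δ minus WT), 42 (atf1Δ minus clr4Δ) and 10 (pcr1Δ minus clr4Δ), and for levels 2 (atf1Δ against pcr1Δ), 78 (atf1Δ against clr4Δ), 62 (pcr1Δ against clr4Δ), 32, 56 and 82 (atf1Δ, pcr1Δ and clr4Δ against WT) and 60 (WT RNA2 against WT RNA1). The block moved no other count by over 1.5 times. Replicate numbers were not taken to pair libraries in atf1Δ, so its block counts rest on an unsupported pairing. Pairing was examined only within lines, not between strains or series.

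Leaving out 1 library gave 126 to 134 (25 against 0 min), 130 to 135 (25 against 5 min) and 4 to 7 (5 against 0 min) in WT RNA1; 1 to 2 and 1 to 3 in WT RNA2 at 5 against 0 and 2.5 min; 1 to 3 in atf1Δ; 1 to 2 in pcr1Δ; 2 to 39 and 1 to 9 in clr4Δ at 5 against 0 and 2.5 min; 0 to 1 for clr4Δ minus WT and 0 to 13 for atf1Δ minus clr4Δ. For levels it gave 25 to 33 (atf1Δ against clr4Δ), 23 to 26 (pcr1Δ against clr4Δ), 3 to 16, 11 to 29 and 11 to 34 (atf1Δ, pcr1Δ and clr4Δ against WT) and 14 to 23 (WT RNA2 against WT RNA1). Of 1388 values of named genes under other settings, 85 lost the call, 12 gained it and 0 reversed. With 3 libraries a group, small changes cannot be told from no change.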
